A study of Homo sapiens with 50 samples.

Results

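Antisense long noncoding RNA genes are named after the gene on the opposite strand, with the suffix AS and a digit, and 1224 genes of the HepaRG transcript table carry such a name. Of these, 258 were expressed and are described here. They were selected on their level alone: transcript values in FPKM, fragment counts scaled by transcript length and library depth, were summed per gene, and a gene was kept where 5 or more of 49 libraries held 1 FPKM or more. Just inside that limit, the fifth-highest library had 1.00 FPKM of NR2F2-AS1, 1.00 FPKM of TBX5-AS1 and 1.01 FPKM of ABHD11-AS1. Just outside it were VASH1-AS1 with 0.984, UGDH-AS1 with 0.979 and CHRM3-AS2 with 0.968 FPKM. For 28 of the 258, the libraries of 1 group decided whether the limit was met, and that group was quizalofop-p-ethyl at 1 mM for 13 of them. The same limit left 24222 of all 79112 genes and loci in the test.

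Antisense transcripts are made from the strand opposite a neighbouring gene, often from a shared promoter region that fires in both directions, and usually carry no long reading frame. Some act on the sense gene at the same locus, some act elsewhere in the cell, and for many only the act of transcription or a hosted small RNA has a known role. In liver cells those studied include transcripts at loci of hepatocyte transcription factors, such as HNF4A-AS1 beside HNF4A.

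HepaRG is an established human hepatic cell line, and its differentiated cultures, used in every group here, hold hepatocyte-like cells next to biliary-like cells. The exposed groups received 1 of 3 herbicides (mesotrione, isoxaflutole, quizalofop-p-ethyl), and concentrations were 0.1 uM, 10 uM and 1 mM for each. Exposure ran from day 8 to day 14 in medium with 2% serum and 1% DMSO, and the Control group is labelled with a concentration of 0. Mesotrione and isoxaflutole are herbicides that act on 4-hydroxyphenylpyruvate dioxygenase, an enzyme of tyrosine breakdown, and quizalofop-p-ethyl is an ester herbicide that acts on acetyl-CoA carboxylase of grasses. Each of the 10 groups had 5 libraries of total RNA. Whether the 5 were separate cultures is not in the labels, and p-values therefore reflect the spread among these libraries alone, possibly a technical one. In bulk RNA, fewer cells of a type and less RNA per cell cannot be told apart.

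Depth was estimated from the files: 1 FPKM of a 1 kb transcript stood for about 7.18 to 34.2 fragments in 49 libraries, with a median of 14.0. The fifth library of the 10 uM quizalofop-p-ethyl group (replicate 5) lay far from the rest, with an estimated 3.78 fragments per FPKM at that length, a summed FPKM of 234909 against 541874 to 801657 in the others, and 21 antisense genes at 1 FPKM against 147 to 202. It was left out of the values and tests below, and the count of calls with all 50 libraries is given beside each comparison at 1 mM. Of 10 biliary markers KRT7, EPCAM and CFTR were among those under 1 FPKM in all Control libraries, while ALB and 20 other markers of 22 hepatocyte markers passed the expression limit.

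All 255 antisense genes that had a sense gene in the table lay on the opposite strand from it. In 174 pairs exons of the genes overlapped, in 40 the genes overlapped without shared exon bases, in 40 they lay head to head without overlap, and 1 pair, IGFL2-AS1 and IGFL2, lay tail to tail. HOXA-AS2, JHDM1D-AS1 and RPARP-AS1 had no sense row of the name before the hyphen. The leading transcript had 1 exon in 43 genes, 2 exons in 93 and 3 or more in 122, with a median length of 949 bases. Its start lay within 1000 bp of the sense start in 116 pairs. The annotation (GENCODE release 29) called 171 of the genes antisense, 37 processed transcripts and 36 lincRNA, and 3 protein coding, namely MMP24-AS1, NCBP2-AS2 and SPTY2D1-AS1. The library kit kept strand, per the labels, but the sources used here do not give the strand setting of alignment and assembly, so every antisense value could hold reads of its sense gene.

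Neighbouring starts can be seen in 4 promoter sequences, shown because their genes return below and because the sense start falls inside the window. Each runs 5′ to 3′ on the antisense gene's strand, from 250 bases before to 50 bases after its RefSeq start (build GRCh38.p14). RefSeq starts can differ from those of the deposited transcripts. Capitals mark the bases between the start of the leading deposited sense transcript and the RefSeq antisense start. The windows are chr7:149873813-149874112 on the minus strand for ATP6V0E2-AS1, chr7:1569823-1570122 on the plus strand for PSMG3-AS1, chr16:1078682-1078981 on the minus strand for SSTR5-AS1, and chr10:31319046-31319345 on the minus strand for ZEB1-AS1.
ATP6V0E2-AS1: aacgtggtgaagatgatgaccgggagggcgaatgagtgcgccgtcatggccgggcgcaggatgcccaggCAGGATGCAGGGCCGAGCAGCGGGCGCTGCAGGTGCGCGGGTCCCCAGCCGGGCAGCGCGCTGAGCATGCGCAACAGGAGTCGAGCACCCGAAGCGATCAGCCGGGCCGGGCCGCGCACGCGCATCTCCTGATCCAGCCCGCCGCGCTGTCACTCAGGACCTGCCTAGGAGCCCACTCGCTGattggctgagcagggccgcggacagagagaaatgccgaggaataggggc
PSMG3-AS1: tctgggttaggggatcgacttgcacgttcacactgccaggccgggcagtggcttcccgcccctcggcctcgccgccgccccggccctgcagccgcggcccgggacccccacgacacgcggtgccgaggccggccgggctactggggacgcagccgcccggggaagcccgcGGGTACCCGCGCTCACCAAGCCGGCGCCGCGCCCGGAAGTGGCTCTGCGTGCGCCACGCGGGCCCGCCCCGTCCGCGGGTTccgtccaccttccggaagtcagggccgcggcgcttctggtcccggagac
SSTR5-AS1: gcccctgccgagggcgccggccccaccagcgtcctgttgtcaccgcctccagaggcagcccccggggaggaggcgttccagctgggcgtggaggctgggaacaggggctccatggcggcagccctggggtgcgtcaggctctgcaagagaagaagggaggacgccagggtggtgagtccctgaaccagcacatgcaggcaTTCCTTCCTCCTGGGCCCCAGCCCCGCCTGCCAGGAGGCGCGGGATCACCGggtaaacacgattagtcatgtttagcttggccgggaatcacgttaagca
ZEB1-AS1: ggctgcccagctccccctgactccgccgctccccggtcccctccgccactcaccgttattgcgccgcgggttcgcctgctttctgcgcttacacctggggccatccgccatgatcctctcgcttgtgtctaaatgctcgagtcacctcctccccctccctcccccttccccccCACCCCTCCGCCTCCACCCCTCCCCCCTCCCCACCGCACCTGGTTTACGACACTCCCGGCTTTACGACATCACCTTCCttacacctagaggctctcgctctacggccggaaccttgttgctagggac

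In all 4 windows the start of the leading deposited sense transcript lay upstream of the RefSeq antisense start. The deposited transcripts are not all divergent: the leading ones of ATP6V0E2-AS1 and ZEB1-AS1 share 619 and 334 exon bases with the sense gene. The marked stretch was 182 bases long in ATP6V0E2-AS1, 81 in PSMG3-AS1, 51 in SSTR5-AS1 and 78 in ZEB1-AS1. The motif CCAAT, searched on both strands, occurred once in ATP6V0E2-AS1 and in none of the other 3. The motif CCGGAAG, searched on both strands and overlapping no CCAAT, matched 3 times in PSMG3-AS1 and in none of the other 3. The place after the capitals was counted on both strands over shared bases, so these are not 3 separate sites. Of 34943 RefSeq promoters of the same length, 34.65% held CCAAT and 10.21% held CCGGAAG. Of the 202 promoters of 165 antisense genes that matched by symbol, 27.72% held CCAAT and 13.86% held CCGGAAG.

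Most antisense genes were present at low levels. Their mean in Control had a median of 1.49 FPKM with quartiles of 0.942 and 2.48, beside a median of 2.88 FPKM over all genes tested. In Control, 7 of 258 were at 10 FPKM or more, 180 between 1 and 10, and 71 under 1. The highest was LRRC75A-AS1, a host of small nucleolar RNAs also known as SNHG29, at 109 ± 29.3 FPKM in Control (SD, n = 5). MMP24-AS1 followed at 60.0 ± 4.45 FPKM and IGFL2-AS1 at 27.2 ± 13.8, whose own spread reached from 11.5 to 41.8. Next came SVIL-AS1 at 17.6 ± 1.79, FGD5-AS1 at 14.4 ± 3.68, OIP5-AS1 (the conserved RNA cyrano) at 12.9 ± 1.20, LBX2-AS1 at 11.7 ± 1.39 and SSTR5-AS1 at 9.96 ± 3.71 FPKM. These last levels lay within each other's spread from one to the next, while LRRC75A-AS1 and MMP24-AS1 did not overlap in any Control library. The antisense gene was above its sense gene in Control in 38 of 220 pairs in which the sense gene was also expressed, with pair medians of 1.48 FPKM for antisense and 6.70 FPKM for sense genes. Together the 258 genes held 0.0983% to 0.140% of the summed FPKM in quizalofop-p-ethyl 1 mM libraries and 0.0997% to 0.139% in Control libraries.

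Quizalofop-p-ethyl at 1 mM changed the antisense genes most often. SSTR5-AS1, ZNF710-AS1 and GAS6-AS1 fell to under 1 FPKM on average, ITIH4-AS1, C4A-AS1 and C4B-AS1 of plasma protein loci fell, and MSC-AS1, LRRC75A-AS1 and MAFG-AS1 rose. In limma's test with Benjamini-Hochberg adjustment over 24222 genes, 34 antisense genes were higher and 45 lower than in Control, 79 of 258 or 30.6%. Over all genes tested, 13% were called higher, 19.8% lower and 32.7% in either direction, so the antisense genes were called about as often as the rest. Their median log2 fold change was -0.05, beside -0.08 over all genes. The 1 added to FPKM before taking log2 makes the fold changes of low genes smaller than those of their levels. With all 50 libraries in the fit the count was 58. Replicate 5 of this group held the largest share of FPKM in genes named as ribosomal RNA, 0.558% against at most 0.188% in any other library, and without it the count was 71. Of the 13 genes that met the limit only with quizalofop-p-ethyl 1 mM libraries 8 were among the calls, and they had to be high there: DLGAP1-AS2 and ATP6V0E2-AS1, for example, reached 1 FPKM in no other group.

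The share called was largest among the more abundant genes. Of 83 antisense genes with a mean under 1 FPKM over the 49 libraries 28.9% were called, beside 18.3% of all genes at that level. Between 1 and 2 FPKM the shares were 22.2% and 28.3%, between 2 and 5 FPKM 36.5% and 31.6%, and at 5 FPKM or more 54.5% of 22 antisense genes and 45.1% of all genes. These are descriptions of the genes that passed the limit and were not tested.

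**Figure D1:**
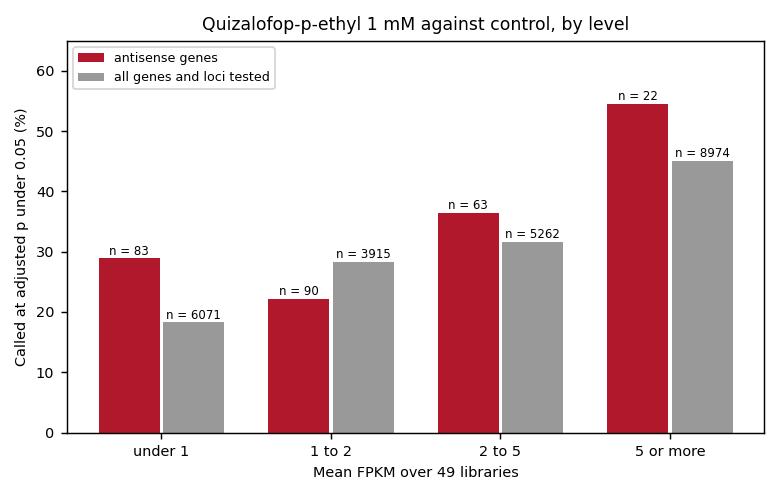
Share of genes called (adjusted p under 0.05) with quizalofop-p-ethyl at 1 mM against Control, in %, by mean FPKM over 49 libraries. Red bars are antisense genes and grey bars all genes and loci tested; at 5 FPKM or more the bars stand at 54.5% and 45.1%.

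Among the antisense genes that fell, SSTR5-AS1 had the largest log2 fold change of FPKM + 1. The added 1 makes the order on this scale depend on level, and by ratio of levels it differs. It lies head to head with SSTR5, a somatostatin receptor gene, at chromosome 16, 1064093 to 1078731 (GRCh38, minus strand), and its promoter is printed above. It had 0.163, 0.728, 0.893, 0.934 and 1.58 FPKM in the quizalofop-p-ethyl 1 mM libraries, against 5.43, 7.81, 10.5, 10.7 and 15.4 FPKM in Control libraries. Its log2 fold change was -2.54 (SE 0.33, adjusted p = 3.59e-08). All 5 exposed libraries were below all Control libraries, which was a condition for naming the genes of largest change here and below. How often this held over all genes was not counted. The sense gene averaged 0.712 ± 0.146 FPKM in exposed cells and 3.45 ± 0.711 FPKM in Control (log2 fold change -1.37, adjusted p = 1.21e-10).

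ZNF710-AS1, antisense to a zinc finger gene at chromosome 15, 90074512 to 90082207 (minus strand), fell much more than its sense gene. Its 5 exposed libraries had 0.0283, 0.0344, 0.0802, 0.136 and 0.195 FPKM, against 2.83, 3.08, 3.17, 3.58 and 4.01 FPKM in Control (log2 fold change -1.98, SE 0.12, adjusted p = 1.53e-17). ZNF710 had 2.99 ± 0.196 FPKM in exposed cells and 4.39 ± 0.169 FPKM in Control, a log2 fold change of -0.43. The antisense level was thus 3.17% of the sense level in exposed cells and 76.0% in Control.

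GAS6-AS1, ITIH4-AS1, PAQR9-AS1, HOXA-AS2 and TMPO-AS1 followed by log2 fold change of FPKM + 1. GAS6-AS1, antisense to the gene of a secreted ligand of TAM receptor kinases, averaged 0.642 ± 0.406 FPKM in exposed cells and 3.63 ± 1.16 FPKM in Control (log2 fold change -1.49, adjusted p = 1.86e-05). ITIH4-AS1, antisense to an acute-phase plasma protein gene, had 0.194, 0.225, 0.352, 0.553 and 0.663 FPKM in exposed libraries, against 2.18, 2.51, 2.54, 2.58 and 2.65 FPKM in Control (log2 fold change -1.33, adjusted p = 6.64e-10). The groups did not overlap, by the same condition, and the 5 Control libraries lay close together. Its sense gene ITIH4 averaged 28.9 ± 25.4 FPKM in exposed cells and 231 ± 92.4 FPKM in Control, and the antisense level was 1.38% of it in exposed cells and 1.08% in Control. PAQR9-AS1 averaged 0.328 ± 0.159 FPKM in exposed cells against 2.11 ± 0.940 FPKM in Control, HOXA-AS2 of the HOXA cluster 0.420 ± 0.175 against 2.06 ± 0.613 FPKM, and TMPO-AS1, antisense to a gene of nuclear lamina proteins, 0.138 ± 0.0627 against 1.35 ± 0.283 FPKM. Their log2 fold changes were -1.18 for PAQR9-AS1, -1.09 for HOXA-AS2 and -1.04 for TMPO-AS1. By the same condition, none overlapped between the groups.

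Among the genes that rose, MSC-AS1, antisense to the gene of the repressor musculin, had 8.93, 9.31, 12.6, 14.2 and 18 FPKM with quizalofop-p-ethyl at 1 mM, against 2.92, 3.60, 4.62, 5.61 and 6.37 FPKM in Control (log2 fold change 1.27, SE 0.25, adjusted p = 5.63e-05). All exposed libraries were above all Control libraries, a condition for naming the largest rises as well. MSC rose more, with 152 ± 16.9 FPKM in exposed cells and 23.8 ± 1.89 FPKM in Control (log2 fold change 2.62, adjusted p = 5.05e-25), so that the antisense level was 8.29% of the sense level in exposed cells and 19.4% in Control.

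LRRC75A-AS1 (chromosome 17, 16438822 to 16478678, plus strand) had 199, 203, 205, 214 and 224 FPKM in exposed libraries, against 72, 89.2, 112, 125 and 147 FPKM in Control (log2 fold change 0.97, SE 0.11, adjusted p = 7.19e-10). The exposed libraries lay close together and above the whole Control range, the latter by the same condition. LRRC75A, a gene with leucine-rich repeats, was far lower, at 0.934 ± 0.783 FPKM in exposed cells and 0.826 ± 0.359 FPKM in Control, and did not pass (log2 fold change 0.02, adjusted p = 0.959).

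MAFG-AS1 starts 115 bp from MAFG, whose small Maf protein pairs with the stress factor NRF2. It had 1.68, 1.68, 2.31, 2.80 and 3.34 FPKM in exposed libraries, against 0.628, 0.692, 0.743, 0.789 and 1.45 FPKM in Control (log2 fold change 0.84, SE 0.13, adjusted p = 1.40e-06). MAFG had 2.95, 3.64, 5.10, 34.6 and 40.9 FPKM in exposed libraries, against 0.887, 1.31, 1.42, 1.68 and 2.97 FPKM in Control. Its exposed libraries fell into 3 low and 2 high values, and the lowest of them overlapped the Control range (log2 fold change 2.11, adjusted p = 0.00193).

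DLGAP1-AS1 and DLGAP1-AS2 are neighbours on chromosome 18 (3593732 to 3598352 and 3603000 to 3608336, plus strand) inside a gene of a synaptic scaffold protein. DLGAP1-AS1 averaged 5.72 ± 0.728 FPKM in exposed cells and 2.45 ± 0.525 FPKM in Control (log2 fold change 0.97). DLGAP1-AS2 averaged 2.11 ± 0.902 FPKM in exposed cells and 0.676 ± 0.166 FPKM in Control (log2 fold change 0.85). DLGAP1-AS2 had met the expression limit only through these exposed libraries, so it had to be high there and its rise is a description. DLGAP1 itself was under the expression limit, at 0.0568 ± 0.0589 FPKM in exposed cells and 0.492 ± 0.115 FPKM in Control, and was not tested. PITPNA-AS1, antisense to a phosphatidylinositol transfer protein gene, averaged 7.72 ± 1.19 FPKM in exposed cells and 4.05 ± 0.903 FPKM in Control (log2 fold change 0.80). OR2A1-AS1 averaged 2.01 ± 0.440 FPKM in exposed cells and 0.733 ± 0.281 FPKM in Control (log2 fold change 0.80), and its level is uncertain because near-identical copies of the olfactory receptor locus could share its reads.

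**Figure D2:**
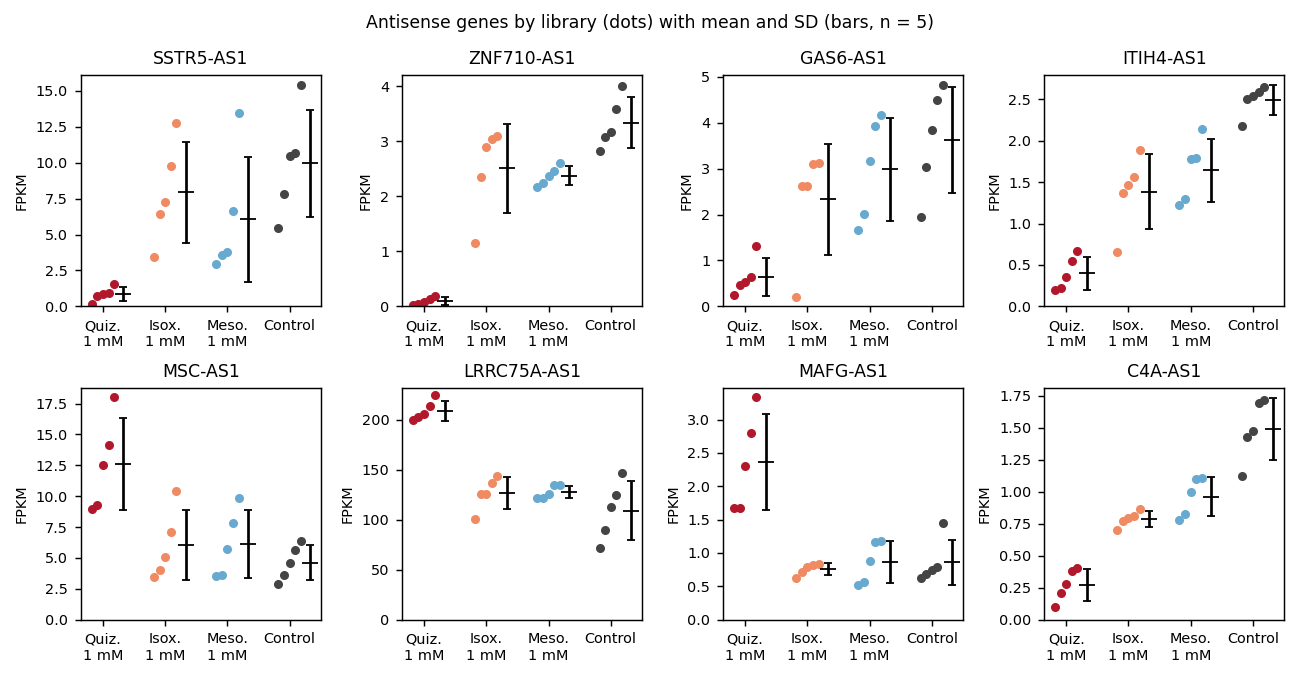
FPKM of 8 antisense genes in each library (dots) with the mean and SD (bars, n = 5) for quizalofop-p-ethyl, isoxaflutole and mesotrione at 1 mM and for Control. SSTR5-AS1, ZNF710-AS1, GAS6-AS1, ITIH4-AS1 and C4A-AS1 were below every Control library with quizalofop-p-ethyl, and MSC-AS1, LRRC75A-AS1 and MAFG-AS1 above every Control library. Except for C4A-AS1, this was a condition for listing them among the largest changes.

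Antisense and sense genes were then set side by side. Of 220 pairs with both genes in the test, quizalofop-p-ethyl at 1 mM gave 9 pairs with both genes higher and 27 with both lower. In 2 pairs the antisense gene was higher and the sense gene lower, and in 4 the antisense gene was lower and the sense gene higher. The antisense gene alone was called in 26 pairs, 17 higher and 9 lower, and the sense gene alone in 56, 17 higher and 39 lower, while neither passed in 96. Over all genes tested, 13% were called higher, 19.8% lower and 32.7% in either direction. Sense genes were the more abundant, with Control medians of 6.70 FPKM against 1.48 FPKM for antisense genes. At a mean of 5 FPKM or more, 45.1% of all genes were called. The part of level in these counts was not tested. The antisense gene was called in 42 of 98 pairs with a called sense gene (42.9%) and in 26 of 122 pairs without one (21.3%), and the Control medians of the antisense genes were 1.43 FPKM in pairs with a called sense gene and 1.49 FPKM in pairs without one. Over the 220 pairs the log2 fold changes had a Pearson r of 0.51 and a Spearman rho of 0.40. Both genes of a pair come from the same libraries and depth, and pairs are not independent replicates. The Pearson r was 0.54 in 99 pairs whose leading antisense transcript shares exon bases with the sense gene and 0.495 in 121 pairs without. In 39 head-to-head pairs without overlap r was 0.55 and rho 0.29, with the same sign in 15 of 39 against 132 of 220 over all pairs, and in 34 overlapping pairs without shared exon bases r was 0.54 and rho 0.49.

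**Figure D3:**
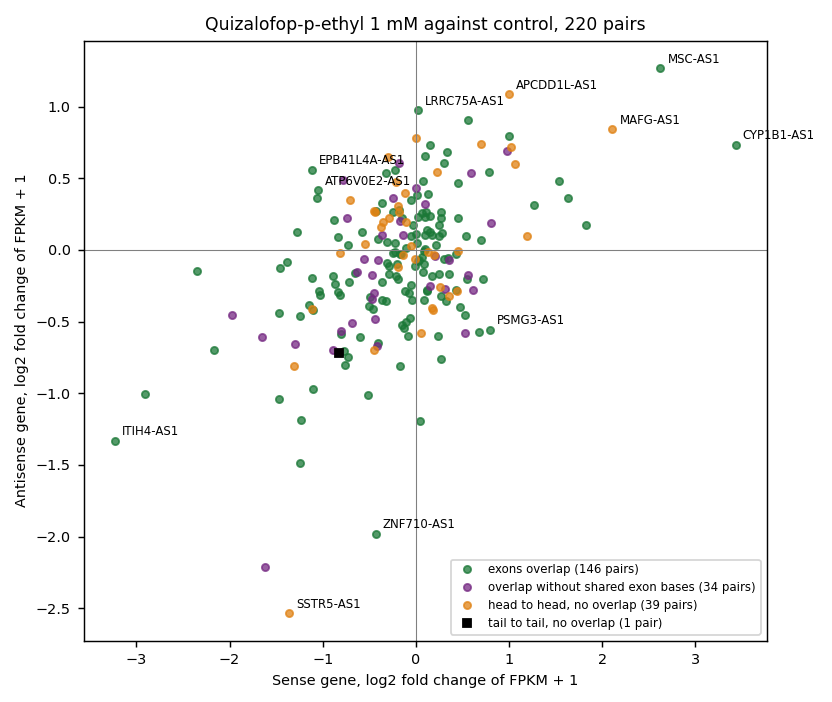
Log2 fold change of FPKM + 1 with quizalofop-p-ethyl at 1 mM against Control for 220 pairs, the sense gene on the x axis and the antisense gene on the y axis, coloured by the arrangement of the genes. SSTR5-AS1, ZNF710-AS1 and ITIH4-AS1 lie in the lower left, MSC-AS1, MAFG-AS1 and CYP1B1-AS1 in the upper right, and EPB41L4A-AS1, ATP6V0E2-AS1 and PSMG3-AS1 in the quadrants of opposite sign.

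Both genes moved in the same direction in other pairs as well. CYP1B1-AS1, beside the dioxin-inducible monooxygenase gene CYP1B1 (chromosome 2, 38073447 to 38231651, plus strand), had 1.41, 1.71, 2.32, 2.33 and 2.87 FPKM in exposed libraries, against 0.600, 0.735, 0.885, 0.896 and 1.20 FPKM in Control (log2 fold change 0.74, SE 0.17, adjusted p = 0.000554). CYP1B1 averaged 95.1 ± 13.9 FPKM in exposed cells and 7.86 ± 0.820 FPKM in Control (log2 fold change 3.43), and the antisense level was 2.24% of it in exposed cells and 11% in Control. HNF4A-AS1, inside the locus of a master regulator of hepatocytes, averaged 0.173 ± 0.147 FPKM in exposed cells and 0.612 ± 0.255 FPKM in Control (log2 fold change -0.45, adjusted p = 0.026), while HNF4A averaged 6.89 ± 3.40 FPKM in exposed cells and 26.6 ± 2.11 FPKM in Control. The antisense level was 2.5% of the HNF4A level in exposed cells and 2.3% in Control, so by level the genes fell alike. HNF4A-AS1 is low, and the added 1 makes its log2 fold change smaller. Its groups overlapped, and its call was lost with 50 libraries and without quizalofop-p-ethyl replicate 2, 4 or 5 or Control replicate 2 or 5.

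All 6 pairs with opposite calls are named. ATP6V0E2-AS1, whose promoter is printed above, had 1.18, 1.27, 1.32, 1.32 and 1.38 FPKM in exposed libraries, against 0.552, 0.674, 0.681, 0.761 and 0.948 FPKM in Control (log2 fold change 0.42, SE 0.09, adjusted p = 0.000129). It had met the expression limit only through these exposed libraries, so it had to be higher there and its call is a description. ATP6V0E2, a subunit of the proton pump of lysosomes, averaged 8.96 ± 2.30 FPKM in exposed cells and 19.5 ± 3.76 FPKM in Control (log2 fold change -1.06, adjusted p = 2.88e-07). EPB41L4A-AS1, a host of a small nucleolar RNA, averaged 5.70 ± 1.31 FPKM in exposed cells and 3.52 ± 0.667 FPKM in Control (log2 fold change 0.56, adjusted p = 0.0271), with overlapping libraries. EPB41L4A averaged 1.84 ± 1.32 FPKM in exposed cells and 4.63 ± 0.948 FPKM in Control (log2 fold change -1.12, adjusted p = 0.00626). The second antisense gene of that locus, EPB41L4A-AS2, named after its values were seen, fell like the sense gene, at 0.874 ± 0.300 FPKM in exposed cells and 1.48 ± 0.253 FPKM in Control (log2 fold change -0.41, adjusted p = 0.00104).

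In the other 4 the antisense gene was the lower one. PSMG3-AS1, which starts 80 bp from a proteasome assembly chaperone gene and whose promoter is printed above, averaged 1.86 ± 0.535 FPKM in exposed cells and 3.19 ± 0.600 FPKM in Control (log2 fold change -0.56, adjusted p = 0.034), and PSMG3 22.4 ± 3.31 FPKM in exposed cells and 12.4 ± 1.17 FPKM in Control (log2 fold change 0.79). EIF1B-AS1 averaged 0.478 ± 0.208 FPKM in exposed cells and 1.18 ± 0.172 FPKM in Control (log2 fold change -0.57, adjusted p = 0.0015), and EIF1B, a translation initiation factor gene, 24.1 ± 2.06 FPKM in exposed cells and 14.7 ± 1.59 FPKM in Control (log2 fold change 0.68). RAB11B-AS1 fell by 0.60 on the log2 scale while RAB11B, a GTPase gene of recycling endosomes, rose by 0.24. PCBP1-AS1 fell by 0.35 (adjusted p = 0.0395) while PCBP1, a gene of an RNA-binding protein, rose by 0.32. The calls of EPB41L4A-AS1, PSMG3-AS1 and PCBP1-AS1 were lost with 50 libraries and with no filter, and that of PCBP1-AS1 also with a minimum of 0.5 FPKM and with the 2 groups alone. Leaving out single libraries also ended them: quizalofop-p-ethyl replicate 1 or 5 or Control replicate 5 for EPB41L4A-AS1, quizalofop-p-ethyl replicate 4 or 5 or Control replicate 1, 2, 4 or 5 for PSMG3-AS1, and quizalofop-p-ethyl replicate 2, 4 or 5 or Control replicate 1, 2 or 5 for PCBP1-AS1. The calls of EIF1B-AS1 and RAB11B-AS1 held in each of these fits, and so did that of ATP6V0E2-AS1, which the expression limit had favoured.

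Antisense genes that have been studied by name were grouped by the kind of locus. Of 9 listed at loci of liver and mesenchymal transcription factors 5 were expressed, with a median log2 fold change of -0.45. Of these FOXD2-AS1 and ZEB1-AS1 rose and 3 fell, HNF4A-AS1 and NR2F1-AS1 among them, with quizalofop-p-ethyl at 1 mM. Over all genes tested, 13% were called higher and 19.8% lower. The lists were chosen with earlier results of these data known, so counts within them are descriptions only. ZEB1-AS1, whose promoter is printed above, starts 142 bp from a gene of epithelial-mesenchymal transition and had 3.19, 3.42, 3.45, 5.53 and 5.71 FPKM in exposed libraries, against 1.83, 1.99, 2.14, 2.49 and 2.62 FPKM in Control (log2 fold change 0.69, adjusted p = 0.000741). ZEB1 itself did not pass, at 5.80 ± 0.970 FPKM in exposed cells and 4.45 ± 1.36 FPKM in Control (adjusted p = 0.142). FOXD2-AS1 averaged 3.92 ± 2.05 FPKM in exposed cells and 1.77 ± 0.708 FPKM in Control (adjusted p = 0.0166), and its call was lost with the 2 groups alone and without Control replicate 3 or 5 or quizalofop-p-ethyl replicate 5. NR2F1-AS1 averaged 0.876 ± 0.347 FPKM in exposed cells and 1.82 ± 0.462 FPKM in Control (adjusted p = 0.00458), and was lost with 50 libraries and with unnamed transcripts added.

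Of 13 listed widely expressed antisense genes 11 passed the limit, with a median log2 fold change of 0.11. Of these DLGAP1-AS1, EPB41L4A-AS1, PAXIP1-AS1 and THAP9-AS1 rose and PCBP1-AS1 and TMPO-AS1 fell, beside 13% higher and 19.8% lower over all genes tested. This list too was chosen with earlier results known. PAXIP1-AS1, beside a DNA damage response gene, averaged 3.52 ± 0.117 FPKM in exposed cells and 2.67 ± 0.426 FPKM in Control (log2 fold change 0.31), and was lost with 50 libraries and with the 2 groups alone. THAP9-AS1 averaged 8.24 ± 1.89 FPKM in exposed cells and 4.69 ± 1.69 FPKM in Control (adjusted p = 0.0444), and leaving out any of 4 quizalofop-p-ethyl libraries (replicates 1, 2, 4 and 5) or Control replicate 3, 4 or 5 ended its call, as did 5 of 8 other settings. The other 5 did not pass, with log2 fold changes of -0.09 for OIP5-AS1, 0.14 for FGD5-AS1, 0.11 for MCM3AP-AS1 and -0.45 for WAC-AS1 among them. Of 12 listed at stress loci 2 were expressed: MAFG-AS1 rose and PSMB8-AS1, antisense to an immunoproteasome subunit gene, did not pass (log2 fold change -0.30). Of 11 listed at metabolic loci 2 were expressed: CYP1B1-AS1 rose and ABHD11-AS1 did not pass (log2 fold change 0.02). Of 11 listed at HOX loci HOXA-AS2 alone was expressed, and it fell. None of the studied genes passed with isoxaflutole or mesotrione at 1 mM, beside 2.42% and 0.879% of all genes called in either direction.

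Of the most abundant antisense genes, SVIL-AS1 rose slightly with quizalofop-p-ethyl at 1 mM, at 22.3 ± 4.25 FPKM in exposed cells and 17.6 ± 1.79 FPKM in Control (log2 fold change 0.31, adjusted p = 0.023), and MMP24-AS1 fell, at 44.6 ± 2.02 FPKM in exposed cells and 60.0 ± 4.45 FPKM in Control (log2 fold change -0.42, adjusted p = 0.00319). Both calls were lost with 50 libraries, and that of SVIL-AS1 also with the 2 groups alone and without quizalofop-p-ethyl replicate 1 or Control replicate 1 or 3. IGFL2-AS1 (log2 fold change -0.72, adjusted p = 0.0638) and LBX2-AS1 (log2 fold change -0.20) did not pass.

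Isoxaflutole at 1 mM lowered 6 of 258 antisense genes and raised none, 2.33%, beside 1.26% lower, 1.16% higher and 2.42% in either direction over all genes tested. The median log2 fold change was -0.11 over the antisense genes and -0.01 over all genes. The 6 included STEAP3-AS1, ITIH4-AS1, C4A-AS1, C4B-AS1 and FLG-AS1, the last named after its values were seen. At an unadjusted p under 0.05 there were 37, or 14.3%, beside 12.6% of all genes. With 50 libraries, and with the 2 groups fitted alone, none of the 258 passed.

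C4A-AS1 and C4B-AS1 of the complement loci fell. C4A-AS1 lies antisense to the complement gene C4A at chromosome 6, 31999976 to 32003521 (minus strand), and C4B-AS1 antisense to the near-identical C4B at 32032713 to 32036258, so reads could be split between the copies and their values are uncertain and not independent. C4A-AS1 had 0.700, 0.769, 0.791, 0.807 and 0.869 FPKM with isoxaflutole at 1 mM, against 1.12, 1.43, 1.47, 1.70 and 1.72 FPKM in Control (log2 fold change -0.47, SE 0.08, adjusted p = 0.000231). C4B-AS1 had 0.731, 0.794, 0.804, 0.822 and 0.907 FPKM, against 1.17, 1.49, 1.63, 1.69 and 1.78 FPKM in Control (log2 fold change -0.49, SE 0.09, adjusted p = 0.000219). Neither overlapped Control, which was a condition for naming them, and both kept their call without any single library of the 2 groups. The sense genes did not pass: C4A averaged 112 ± 73.4 FPKM with isoxaflutole and 127 ± 118 FPKM in Control, a spread that reached from 17.7 to 294 FPKM within Control alone.

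STEAP3-AS1, antisense to a ferrireductase gene (chromosome 2, 119244422 to 119249071, minus strand), had 0.925, 0.951, 1.40, 1.47 and 1.65 FPKM with isoxaflutole, against 1.77, 2.24, 2.78, 3.47 and 3.70 FPKM in Control (log2 fold change -0.72, SE 0.19, adjusted p = 0.0327). ITIH4-AS1 averaged 1.39 ± 0.456 FPKM with isoxaflutole and 2.49 ± 0.184 FPKM in Control (log2 fold change -0.57, adjusted p = 0.025). FLG-AS1 averaged 0.499 ± 0.172 FPKM with isoxaflutole and 1.22 ± 0.462 FPKM in Control (log2 fold change -0.55, adjusted p = 0.00198), with overlapping libraries. STEAP3 and ITIH4 did not pass, with log2 fold changes of -0.13 and -0.21. The call of STEAP3-AS1 was lost without isoxaflutole replicate 1 or 2 or Control replicate 1, 2 or 5, and that of ITIH4-AS1 without isoxaflutole replicate 5 or Control replicate 2, 4 or 5. Both calls were also lost with no filter. Without Control replicate 2, or without Control replicate 5, 3 of the 258 passed.

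Mesotrione at 1 mM raised APCDD1L-AS1 and lowered C4A-AS1 and C4B-AS1, 3 of 258 antisense genes or 1.16%. Over all genes tested 0.178% were higher, 0.702% lower and 0.879% called in either direction. APCDD1L-AS1 lies head to head with APCDD1L, 605 bp from its start, at chromosome 20, 58515379 to 58619888 (plus strand). It had 6.32, 7.15, 8.19, 9.69 and 11.3 FPKM with mesotrione, against 2.39, 3.39, 3.43, 4.53 and 5.23 FPKM in Control (log2 fold change 1.00, SE 0.23, adjusted p = 0.015). All 5 exposed libraries were above the Control range, which was a condition for naming it. APCDD1L did not pass, at 7.53 ± 1.54 FPKM with mesotrione and 5.51 ± 0.514 FPKM in Control (log2 fold change 0.37, adjusted p = 0.33). With quizalofop-p-ethyl at 1 mM both genes of that pair were called higher, APCDD1L-AS1 at 9.39 ± 3.23 FPKM against 3.79 ± 1.10 FPKM in Control and APCDD1L at 12.1 ± 2.34 FPKM against 5.51 ± 0.514 FPKM.

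C4A-AS1 averaged 0.961 ± 0.154 FPKM with mesotrione and 1.49 ± 0.243 FPKM in Control (log2 fold change -0.34, adjusted p = 0.0245), and C4B-AS1 averaged 0.990 ± 0.135 FPKM with mesotrione and 1.55 ± 0.240 FPKM in Control (log2 fold change -0.36, adjusted p = 0.023). At an unadjusted p under 0.05 there were 30 of 258 antisense genes, or 11.6%, beside 9.36% of all genes. These 3 calls were not firm. None passed with 50 libraries or with the 2 groups fitted alone, APCDD1L-AS1 was lost without mesotrione replicate 2 or Control replicate 5, C4A-AS1 also with no filter, and C4A-AS1 and C4B-AS1 with a pseudocount of 0.1 and without mesotrione replicate 1 or 5 or Control replicate 2, 4 or 5. The count without 1 library ran from 0 to 3.

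With quizalofop-p-ethyl at 1 mM the complement pair was lower still, with C4A-AS1 at 0.272 ± 0.126 FPKM and C4B-AS1 at 0.276 ± 0.129 FPKM beside the same Control libraries, and STEAP3-AS1 at 0.896 ± 0.482 FPKM. The 3 comparisons share their Control libraries, so their values are given side by side and not as independent evidence.

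At 0.1 uM and 10 uM no antisense gene passed with any compound. Quizalofop-p-ethyl at 10 uM gave calls for 0.00826% of all genes, 0.00413% higher and 0.00413% lower, and the other 5 groups for 0%. At an unadjusted p under 0.05 there were 12 of 258 antisense genes for quizalofop-p-ethyl, 13 for isoxaflutole and 13 for mesotrione at 0.1 uM, and 15, 16 and 11 for the same compounds at 10 uM. These shares of 4.26% to 6.2% stood beside 3.03% to 5% of all genes. Along the quizalofop-p-ethyl series SSTR5-AS1 averaged 9.96 ± 3.71 FPKM in Control, 10.7 ± 3.02 FPKM at 0.1 uM, 9.06 ± 1.99 FPKM at 10 uM (4 libraries) and 0.860 ± 0.508 FPKM at 1 mM. LRRC75A-AS1 had a higher mean in each of the 9 exposed groups than in Control, from 117 ± 14.8 FPKM with mesotrione at 0.1 uM to 209 ± 10.0 FPKM with quizalofop-p-ethyl at 1 mM, and the Control group had the widest spread of these, 109 ± 29.3 FPKM. At the lower concentrations its differences did not pass adjustment.

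**Figure D4:**
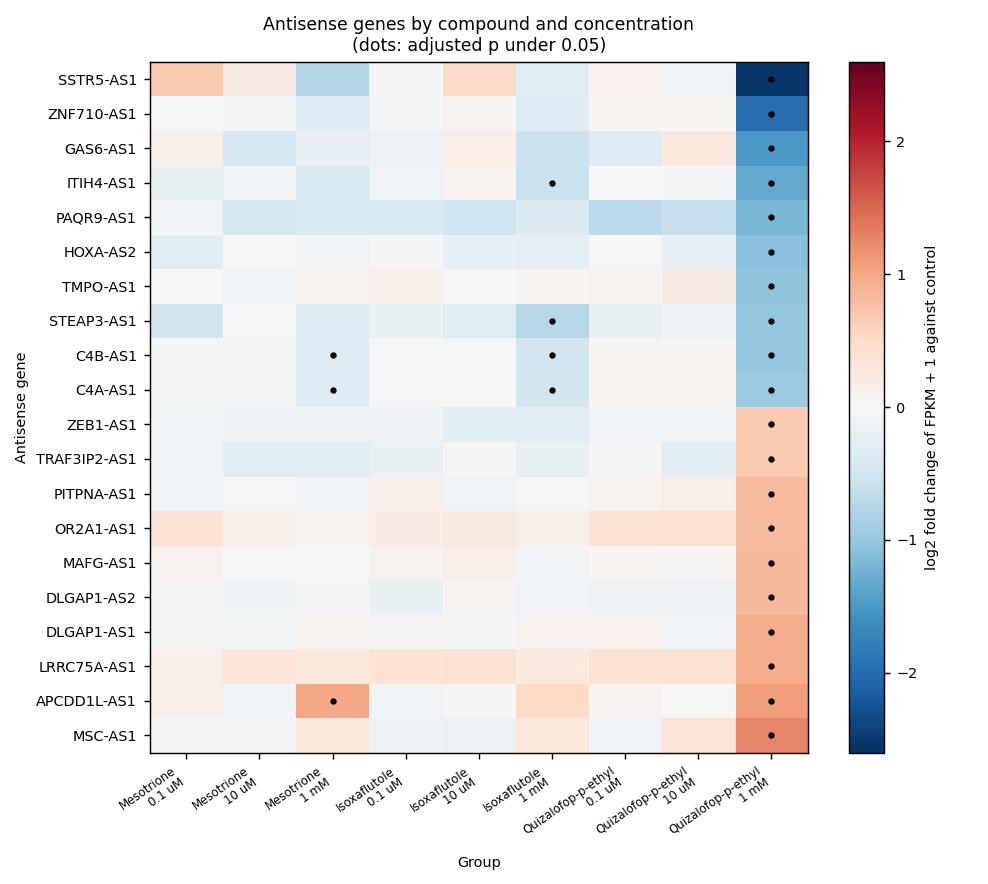
Log2 fold change of FPKM + 1 against Control for 20 antisense genes among those with the largest changes, by compound and rising concentration, with dots where the adjusted p was under 0.05. Dots stand only in columns of 1 mM, and the values at 0.1 uM and 10 uM lie between -0.69 and 0.68. DLGAP1-AS2 met the expression limit only through the quizalofop-p-ethyl 1 mM libraries, so its dot there is a description.

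The compounds were also compared directly at 1 mM. Quizalofop-p-ethyl gave 46 antisense genes higher and 32 lower than isoxaflutole, 78 in all or 30.2%, beside 11.7% higher, 18.1% lower and 29.7% in either direction over all genes. Against mesotrione it gave 41 higher and 34 lower, 75 in all or 29.1%, beside 12.6% higher, 17.6% lower and 30.2% in either direction over all genes. The counts with 50 libraries were 49 against isoxaflutole and 47 against mesotrione. ZEB1-AS1 was higher with quizalofop-p-ethyl than with isoxaflutole, with 4.26 ± 1.25 FPKM against 1.69 ± 0.570 FPKM with isoxaflutole (log2 fold change 0.96, SE 0.16). TRAF3IP2-AS1, inside the locus of an adaptor of interleukin-17 signalling, averaged 2.80 ± 0.874 FPKM with quizalofop-p-ethyl and 0.883 ± 0.319 FPKM with mesotrione (log2 fold change 1.00, adjusted p = 0.000456). SSTR5-AS1 was lower with quizalofop-p-ethyl, with a log2 fold change of -2.21 against isoxaflutole and -1.79 against mesotrione.

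Between isoxaflutole and mesotrione at 1 mM no antisense gene passed, beside 0.231% higher, 0.0248% lower and 0.256% in either direction over all genes, and 17 of 258 (6.59%) had an unadjusted p under 0.05, beside 6.72% of all genes. The count was 0 with 50 libraries, and 0 or 1 without 1 library. APCDD1L-AS1, called with mesotrione and not with isoxaflutole against Control, averaged 5.98 ± 2.05 FPKM with isoxaflutole and 8.53 ± 1.99 FPKM with mesotrione, and that difference did not pass (log2 fold change -0.48, SE 0.23, adjusted p = 0.716). C4A-AS1 (log2 fold change -0.13, SE 0.08) and STEAP3-AS1 (log2 fold change -0.37, SE 0.19) did not pass either.

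Markers of cell types moved with quizalofop-p-ethyl at 1 mM too. All 21 tested hepatocyte markers were called lower, and their summed level ran from 260 to 6018 FPKM in exposed libraries and from 21765 to 26409 FPKM in Control. Of the other lists 5 of 7 biliary, 5 of 8 stellate, 2 of 4 leukocyte and 1 of 1 endothelial markers were lower, and 1 stellate marker was higher. Summed biliary markers ran from 85.9 to 187 FPKM in exposed libraries and from 638 to 729 FPKM in Control, and stellate markers from 50.8 to 238 FPKM in exposed libraries and from 248 to 745 FPKM in Control. Leukocyte markers summed to 3.14 to 16.1 FPKM in exposed libraries and 9.89 to 37.6 FPKM in Control, with PTPRC and CD3E among those under 1 FPKM in all Control libraries, and endothelial markers to 0.444 to 1.18 FPKM in exposed libraries and 1.85 to 2.41 FPKM in Control, with PECAM1 and VWF under 1 FPKM. With isoxaflutole 5 hepatocyte markers were lower and 1 higher, 3 stellate markers lower, and biliary markers 1 lower and 1 higher. With mesotrione 3 hepatocyte markers were lower and 1 higher, 2 biliary and 2 stellate markers lower, and 1 leukocyte marker lower. The part of these shifts in the antisense results was not tested.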

How the data were processed

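The authors deposited 1 table of FPKM values, transcript by library, for 50 libraries of 75 bp paired reads. Alignment and assembly used HISAT or HISAT2 and StringTie on GRCh38, tools that the submitters' processing notes list without versions. In 20 of the deposited columns FPKM values slightly below 0 occurred (24 values, recorded as score because of them), which were set to 0, and 1 broken line was rejoined. Transcript FPKM were summed by gene name, and the 40117 transcripts without a gene name were summed by locus, apart from the named genes. Depth was estimated from the FPKM step of 1 fragment in 17521 single-exon transcripts. A pseudocount of 1 was added, log2 taken, and all genes fitted by limma 3.58.1 (R 4.3.3) with 1 mean per group over 49 libraries and eBayes' trend and robust options. P-values were adjusted by Benjamini-Hochberg over 24222 genes, with a threshold of 0.05, and the fit was tested on simulated data. Coordinates are those of the table. Of 4141 transcripts of the pairs, 4107 had the same coordinates in GENCODE 29.

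The members, lists and tests were chosen with earlier results of these data known. Named genes were the studied ones, the 8 highest in Control, those with the largest changes and no overlap between groups (8 each way for quizalofop-p-ethyl at 1 mM, 4 for the other compounds, 2 in other comparisons), and 6 pairs with opposite calls. Some genes that the rule names are not reported here. Alternatives were a pseudocount of 0.1, no filter, a minimum of 0.5 FPKM, median-ratio scaling, 2 groups alone, runs of sample numbers as a block, 50 libraries, unnamed transcripts added to named loci, and each library left out. Tables were made with Python 3.11.15, pandas 2.3.3, numpy 2.4.6 and matplotlib 3.10.9.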

Additional observations from a re-analysis of the deposited data

Results flagged for a closer look

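In 8 of 184 sets of 5 libraries 1 library lay apart from the other 4 of its group by Dixon's criterion, which chance gives in about 1 of 20 sets. With quizalofop-p-ethyl at 1 mM, replicate 5 had 6.88 FPKM of OIP5-AS1 against 13.4 to 14.2 in the other libraries, and 0.0574 FPKM of PAQR9-AS1 against 0.360 to 0.478, and replicate 3 had 4.93 FPKM of THAP9-AS1 against 8.42 to 9.48. With isoxaflutole at 1 mM, replicate 2 had 0.214 FPKM of GAS6-AS1 against 2.61 to 3.12, replicate 1 had 0.433 FPKM of PAQR9-AS1 against 1.49 to 1.69, and replicate 4 had 2.89 FPKM of PAXIP1-AS1 against 2.43 to 2.55. In Control, replicate 4 had 1.08 FPKM of ABHD11-AS1 against 0.566 to 0.681 and 1.45 FPKM of MAFG-AS1 against 0.628 to 0.789.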

How the results depend on the processing

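For quizalofop-p-ethyl at 1 mM against Control the 79 calls became 58 (50 libraries) to 111 (unnamed transcripts added) under the alternatives. They became 71 to 80 without 1 library. For isoxaflutole the 6 calls became 0 with the 2 groups alone, 0 with 50 libraries, 3 with no filter and 10 with unnamed transcripts added, and 3 to 8 without 1 library. For mesotrione the 3 calls became 0 with the 2 groups alone, 0 with 50 libraries, 1 with a pseudocount of 0.1 and 5 with unnamed transcripts added, and 0 to 3 without 1 library. With 50 libraries quizalofop-p-ethyl gave 49 calls against isoxaflutole and 47 against mesotrione, and 66 to 77 and 65 to 77 without 1 library. Isoxaflutole against mesotrione gave 0 in the alternatives and 0 to 1 without 1 library, and the lower concentrations 0 throughout. None of the 45 calls of named genes against Control that were refitted changed sign. That shows little, because they were chosen as passing in the main fit and the refits share most libraries. Several lost their call, THAP9-AS1 in 5 of 8 settings and in 7 of 10 fits without 1 library. The causes were not tested.

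Replicate numbers follow accession order, so no pairing comes from the labels. With the 5 runs of consecutive sample numbers as the replicate block, the calls were 83 for quizalofop-p-ethyl, 10 for isoxaflutole and 3 for mesotrione against Control. Between libraries of different groups, deviations from group means had a mean correlation of 0.017 within a run and -0.004 across runs. By mean correlation 41 of 49 libraries were closest to their own run. That count cannot show a run effect, because it favours the own run by construction. Only the other runs hold libraries of the same group, and centring on the group mean makes their deviations correlate negatively. In the shallowest of the 49 libraries 1 FPKM of a 1 kb transcript rests on about 7.18 fragments.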
